A study of Mus musculus with 12 samples.

Results

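Gene expression after a 10-fold step in interferon γ (IFNγ), in cells that received no drug, was read from 4 of the 12 RNA-seq libraries of the series: 2 titled IFNγ 2000 pg (replicates 2 and 3) and 2 titled IFNγ 200 pg (replicates 1 and 2). They were chosen by their titles. All libraries came from Myc-CaP, an established mouse prostate cancer cell line of FVB/NJ background that carries a Myc transgene, and all were collected 48 h after treatment. The groups are named IFN200 and IFN2000 here. The labels give the dose without a volume, while the study's methods give it per mL of medium. The other groups were untreated cells (Ctrl), oxaliplatin alone at 2 μM (Oxali, a platinum drug that crosslinks DNA), and Oxali with IFNγ at 200 pg (Combo200) or 2000 pg (Combo2000), with 2 libraries each. The labels do not say whether libraries of a group came from separate cultures, so p-values measure only the spread between these libraries, which may be technical.

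A second label, the agent, disagrees with the titles for the single treatments. The agent of the libraries titled IFNγ 200 pg is Oxali, and that of the libraries titled IFNγ 2000 pg is IFNγ 200 pg. The libraries titled Oxali carry the agent IFNγ 2000 pg. If the agents were right, the comparison below would set IFNγ 200 pg against Oxali. Cdkn1a, a p53 target and cell-cycle inhibitor, stood at 26.9 and 25.6 CPM in IFN200 and at 29.3 and 30.3 CPM in IFN2000. In Ctrl it stood at 24.0 and 24.8 CPM, and in the libraries titled Oxali at 51.0 and 48.1 CPM. CPM are counts scaled to a common library total. The titles were used throughout.

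IFNγ binds a receptor of paired IFNGR1 and IFNGR2 chains and activates the kinases JAK1 and JAK2. The signal reaches gamma-activated sites (GAS) in promoters and induces, among others, the transcription factor IRF1, which binds interferon-stimulated response elements (ISRE). Known targets are guanylate binding proteins, immunity related GTPases, the immunoproteasome and the machinery that loads peptides onto MHC class I.

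Library totals of the 4 libraries ran from 23496492 to 24367284 counts, and a count of 3, taken as the limit that a count of 0 allows, was 0.128 to 0.134 CPM. This limit covers counting error only. The counts of partner libraries differed beyond sampling noise, with a chi-square per degree of freedom of 2.43 in IFN200 and 5.06 in IFN2000, so no library was a copy of its partner. Of the prostate luminal markers, Krt8 had 420 to 528 counts, whereas Epcam had no count in any of the 12 libraries. IFN2000 replicate 2 stood apart in a list of 11 T cell markers, which summed to 290 counts there and to 18, 8 and 23 in the other 3 libraries. Cd3e, Cd3d, Cd3g, Cd2, Cd4, Trbc1, Trbc2 and Ifng had no count in those 3 libraries, Cd4 had 33 and Ifng 117 in IFN2000 replicate 2, and Cd8a had none in all 4. In a bulk library more cells of a type and more RNA per cell cannot be told apart. IFN200 replicate 1 stood apart in a list of 12 heart muscle markers, with 214 counts against 29, 31 and 26. Results that rest on these libraries are given with and without them. The source of the T cell and heart muscle transcripts, and their part in each result, were not tested.

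The stretches of promoter shown here are from 4 genes that rose with the dose and hold one or both binding motifs. Igtp and Irgm2 were added after their values were seen. Each line gives the 250 bases before the RefSeq start, 5′ to 3′ on the strand of the gene (build GRCm38.p6), with motif matches in capitals. The GAS motif was TTC and GAA with any 3 bases between them, and the ISRE motif was 2 copies of GAAA with any 2 bases between them. Both strands were searched.
Irf1 (chr11:53769764-53770013, plus strand): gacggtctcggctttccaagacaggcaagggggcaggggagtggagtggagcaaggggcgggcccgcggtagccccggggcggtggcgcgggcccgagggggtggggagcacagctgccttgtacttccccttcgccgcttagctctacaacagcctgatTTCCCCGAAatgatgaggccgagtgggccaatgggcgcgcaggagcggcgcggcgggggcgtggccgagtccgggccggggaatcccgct
Gbp2 (chr3:142620413-142620662, plus strand): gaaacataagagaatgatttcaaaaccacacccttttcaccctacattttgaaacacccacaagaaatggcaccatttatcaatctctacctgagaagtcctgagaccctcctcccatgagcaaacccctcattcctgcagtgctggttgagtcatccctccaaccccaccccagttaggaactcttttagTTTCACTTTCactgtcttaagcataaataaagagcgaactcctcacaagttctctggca
Igtp (chr11:58199306-58199555, plus strand): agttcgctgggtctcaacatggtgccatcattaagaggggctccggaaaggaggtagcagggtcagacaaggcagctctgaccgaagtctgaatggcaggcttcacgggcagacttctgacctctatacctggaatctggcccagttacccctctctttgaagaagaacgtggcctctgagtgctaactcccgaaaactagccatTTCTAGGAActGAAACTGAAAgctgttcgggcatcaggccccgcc
Irgm2 (chr11:58214727-58214976, plus strand): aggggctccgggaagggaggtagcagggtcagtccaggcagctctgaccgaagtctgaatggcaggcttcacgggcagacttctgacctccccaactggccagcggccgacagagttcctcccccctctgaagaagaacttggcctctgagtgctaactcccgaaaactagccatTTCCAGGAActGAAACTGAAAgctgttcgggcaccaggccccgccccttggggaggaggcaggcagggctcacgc
Irf1 held a GAS match 90 to 82 bases before its start, in 1 of the 2 windows listed for the gene. In Gbp2 an ISRE match lay 59 to 50 bases before the start, on the opposite strand. The GENCODE span of Gbp2 given below begins upstream of this RefSeq start and takes in the match. Igtp held a GAS match at 45 to 37 bases and an ISRE match at 34 to 25 bases before the start. Irgm2 held the same pair of motifs at 75 to 67 and 64 to 55 bases before the start. The windows of Igtp and Irgm2 share a run of 55 identical bases, which lies upstream of these matches and holds none of them. The window of Psmb9 held neither motif. A match is a description of the letters and shows no binding.

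Irf1, an early target and relay of the IFNγ signal, lies at chr11:53770014-53778374 (GENCODE M21, GRCm38, plus strand). It stood at 47.1 and 42.9 CPM in IFN200 and at 94.6 and 93.9 CPM in IFN2000. The libraries of the higher dose were both about 2-fold above those of the lower dose, which in turn lay just above the Ctrl libraries at 38.6 and 37.0 CPM. The log2 fold change of IFN2000 over IFN200 was 1.07 ± 0.048 (SE, adjusted p = 1.15e-11, edgeR quasi-likelihood test). Gbp2, a guanylate binding protein that acts against intracellular pathogens, lies at chr3:142620602-142638008 on the plus strand. It stood at 3.30 and 2.25 CPM in IFN200 and at 30.6 and 30.7 CPM in IFN2000, with 1.00 and 0.912 CPM in Ctrl. Its log2 fold change was 3.46 ± 0.108 (SE, adjusted p = 3.7e-14, edgeR).

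**Figure D1:**
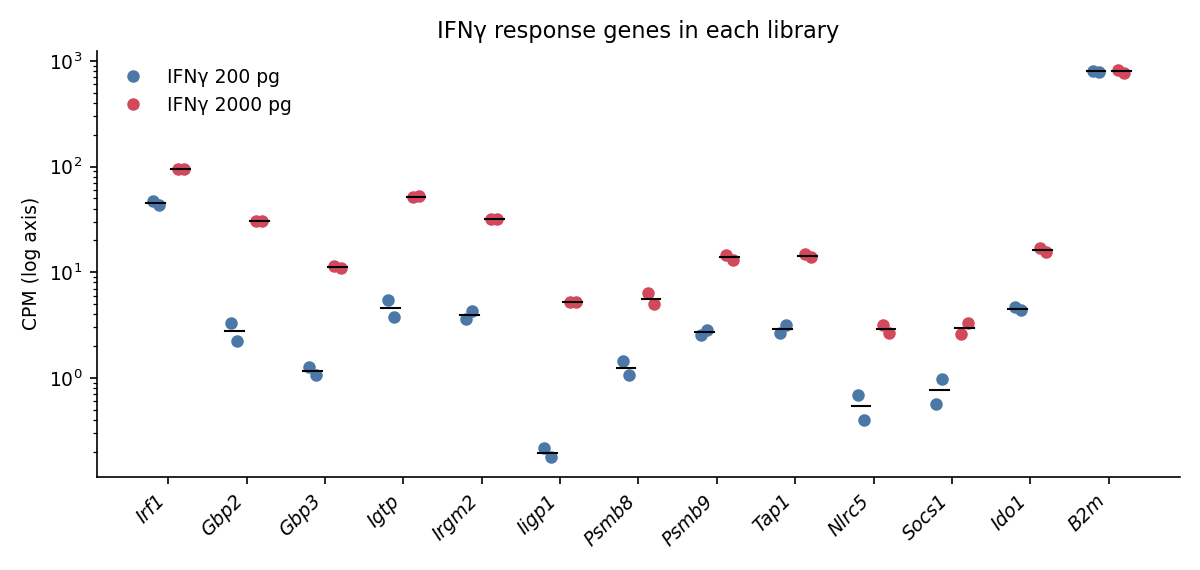
CPM (log axis) of 13 genes in each library of IFN200 and IFN2000; points are libraries and lines are group means. For every gene but B2m both libraries titled 2000 pg lie above both libraries titled 200 pg.

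Across all genes, 2943 of 13177 tested genes (22.3%) were called between the doses at an adjusted p under 0.05, 1493 higher (11.3%) and 1450 lower (11%) in IFN2000. Most changes were small. The median absolute log2 fold change of the called genes was 0.22, and 90.9% of them changed by less than 0.5 on the log2 scale. By fitted fold change, 103 called genes (0.782%) changed at least 2-fold, 69 upward (0.524%) and 34 downward (0.258%). In 20 of the 69 both IFN200 libraries were at or under 3 counts, and taken against 3 counts 14 of these were at least 2-fold higher, which leaves 63. In 7 of the 34 both IFN2000 libraries were at or under 3 counts, which leaves 33 by the same bound. DESeq2 called 24 genes higher and 8 lower at 2-fold, edgeR called 33 and 11 among genes averaging at least 50 counts and 160 and 47 with no filter on low counts, and the falls numbered 18 with a replicate block. The count of calls fell to 1190 without IFN2000 replicate 2 and to 1213 without IFN200 replicate 1. Libraries of the 2 groups did not overlap in 7789 genes (59.1%).

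Genes of the interferon response held 29 of the 69 rises of at least 2-fold, and 27 of the 63 that remain with the bounds. They held 21 of the 24 by DESeq2, 26 of the 33 among genes averaging at least 50 counts and 29 of the 160 with no filter. Of 115 genes on the 9 interferon lists, 100 were tested, 49 were called higher and 7 lower, against 11.3% and 11% of all genes tested. Their median log2 fold change was 0.54, against 0.0023 for all genes. The numbers higher and lower were 39 and 4 without IFN2000 replicate 2, and 40 and 2 without IFN200 replicate 1.

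Among receptor and signalling genes, 2 of 9 tested were higher and 3 lower, against 11.3% and 11% of all genes tested. Stat3, a transcription factor downstream of cytokine receptors, rose by 0.20 and the kinase Jak2 fell by 0.17 on the log2 scale. The receptor chain Ifngr1 stood at 34.4 and 37.7 CPM against 37.7 and 36.8, and Jak1 at 182 and 176 against 170 and 180, with groups that overlapped in both. Stat2, a factor of type I interferon signalling, had a log2 fold change of 0.038 and was not called (adjusted p = 0.742, edgeR). Of the 2 rises and 3 falls of this list, 1 and 0 remained called without IFN200 replicate 1.

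Of 9 tested interferon regulatory factors and transactivators, 4 were higher and none lower, against 11.3% and 11% of all genes tested. Nlrc5, the transactivator of MHC class I genes, stood at 0.695 and 0.398 CPM in IFN200 and at 3.17 and 2.68 CPM in IFN2000 (log2 fold change 2.41 ± 0.300, SE). Irf9, the DNA-binding partner of STAT2, rose by 0.70 and Irf8 by 1.16 on the log2 scale. Irf8 rested on few reads, with 15, 13, 43 and 20 counts, and was not called without IFN2000 replicate 2 or without either IFN200 library. Irf2, which competes with IRF1 for its sites, stood at 37.7 and 37.6 CPM against 39.8 and 39.5 and was not called.

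Negative regulators had 4 of 11 genes higher and 1 lower, against 11.3% and 11% of all genes tested. Socs1, the inhibitor of JAK kinases, stood at 0.564 and 0.972 CPM in IFN200 and at 2.61 and 3.30 CPM in IFN2000 (log2 fold change 1.94 ± 0.243, SE). Ido1, which degrades tryptophan, stood at 4.64 and 4.37 CPM against 17.1 and 15.4, a rise of 1.85 on the log2 scale. Cd274, which encodes the checkpoint ligand PD-L1, stood at 1.48 and 1.37 CPM against 3.30 and 1.87. Both libraries titled 2000 pg were above those titled 200 pg, although the call of Cd274 was lost without IFN2000 replicate 2 or without either IFN200 library. Socs3 rose by 0.20 and was not called after the length correction described below or without IFN200 replicate 1, IFN2000 replicate 2 or IFN2000 replicate 3. Without IFN2000 replicate 2, or without IFN200 replicate 1, 2 of the 4 rises were called.

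Of 11 tested guanylate binding proteins, 8 were higher and none lower, against 11.3% and 11% of all genes tested. Gbp3 stood at 1.26 and 1.06 CPM in IFN200 and at 11.5 and 10.9 CPM in IFN2000, a log2 fold change of 3.26 ± 0.130 (SE). Gbp7 stood at 1.91 and 1.99 CPM against 8.69 and 8.44, a log2 fold change of 2.13. In 8 of the 11 genes no IFN200 library exceeded 3 counts. Of these 8, 5 were called, and their folds were taken against 3 counts as lower bounds, while 3 were not called. Gbp5 was at least 4.99-fold higher, Gbp2b at least 4.36-fold higher and Gbp4 at least 2.99-fold higher, each against 3 counts per library. Gbp4 was not called without IFN200 replicate 1 or without IFN2000 replicate 2. The median log2 fold change of the list was 3.46, and 1.58 with such genes at their bound. Without IFN2000 replicate 2, or without IFN200 replicate 1, 5 members were called, and DESeq2 called 4. Members of this family resemble each other, so reads may have been split between them.

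The immunity related GTPases, which disrupt the vacuoles of pathogens, had 8 of 10 tested genes higher and none lower. Of all genes tested, 11.3% were higher and 11% lower. Igtp stood at 5.43 and 3.76 CPM in IFN200 and at 51.3 and 52.4 CPM in IFN2000, the largest rise among genes averaging at least 1 log2 CPM (log2 fold change 3.49 ± 0.087, SE). Irgm2 stood at 3.65 and 4.29 CPM against 32 and 31.6, a log2 fold change of 3.00. Iigp1 went from 5 and 4 counts to 121 and 118 counts. Irgm1, at 65.0 and 63.4 CPM in IFN200, was already well expressed and rose by 0.87 on the log2 scale. Tgtp1 and Tgtp2 have near-identical sequences and their values, log2 fold changes of 1.07 and 3.15, are uncertain. The median log2 fold change of the list was 3.08, and 1.82 with the 2 genes at or under 3 counts at their bound.

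In MHC class I antigen processing and presentation (AgPPM), 14 of 18 genes were higher and none lower, with a median log2 fold change of 0.47. Among all genes tested, 11.3% were higher and 11% lower. The immunoproteasome subunits Psmb9, Psmb8 and Psmb10, which replace catalytic subunits of the standard proteasome, rose by 2.36, 2.17 and 1.06 on the log2 scale. Psmb9 stood at 2.56 and 2.83 CPM in IFN200 and at 14.6 and 13.2 CPM in IFN2000. The peptide transporter genes Tap1 and Tap2 rose by 2.31 and 1.06. Psmb9 and Tap1 overlap at their ends, and whether the counting used strand was not stated, so reads there may be shared. The peptide loading genes Tapbp and Tapbpl rose by 0.46 and 0.91, the proteasome activators Psme1 and Psme2 by 0.47 and 0.56, and the trimming peptidase Erap1 by 0.29. The heavy chains H2-K1 and H2-D1 rose by 0.24 and 0.23, and their reads may be shared with other H2 genes. B2m, the light chain of MHC class I, stood at 810 and 779 CPM against 817 and 769 and was not called (adjusted p = 0.967, edgeR). Canx, a chaperone of the heavy chain, stood at 1758 and 1695 CPM against 1614 and 1660 and was not called.

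The antiviral list had 10 of 23 tested genes higher and 3 lower, against 11.3% and 11% of all genes tested. Xaf1, a pro-apoptotic protein, stood at 0.434 and 0.353 CPM in IFN200 and at 1.33 and 1.92 CPM in IFN2000. Isg15, a ubiquitin-like modifier, rose by 0.59 on the log2 scale, Bst2, which tethers budding virions, by 0.44, Parp9 by 0.50 and Oasl2 by 1.72. Ifit2 fell by 0.30, Samhd1, which depletes nucleotides, fell by 0.19, and Rnf213 fell by 0.36. The fall of Rnf213, whose exons sum to 16888 bases, was not called after the length correction, without IFN2000 replicate 2 or without either IFN200 library. Of the class II presentation genes 5 of 10 passed the filter on low counts, and of the chemokines 6 of 9. None of either was called by edgeR with this filter or by DESeq2. The median log2 fold change was 0.22 in the class II genes and 1.92 in the chemokines, or 0.30 with the 3 chemokines at or under 3 counts in IFN200 at their bound. Ccl5, with 0 and 1 counts in IFN200 and 8 and 2 in IFN2000, was called higher with no filter on low counts and without IFN2000 replicate 3. Ciita, the transactivator of class II genes, and the chemokines Ccl5 and Cxcl10 had an unadjusted p under 0.05 in edgeR.

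**Figure D2:**
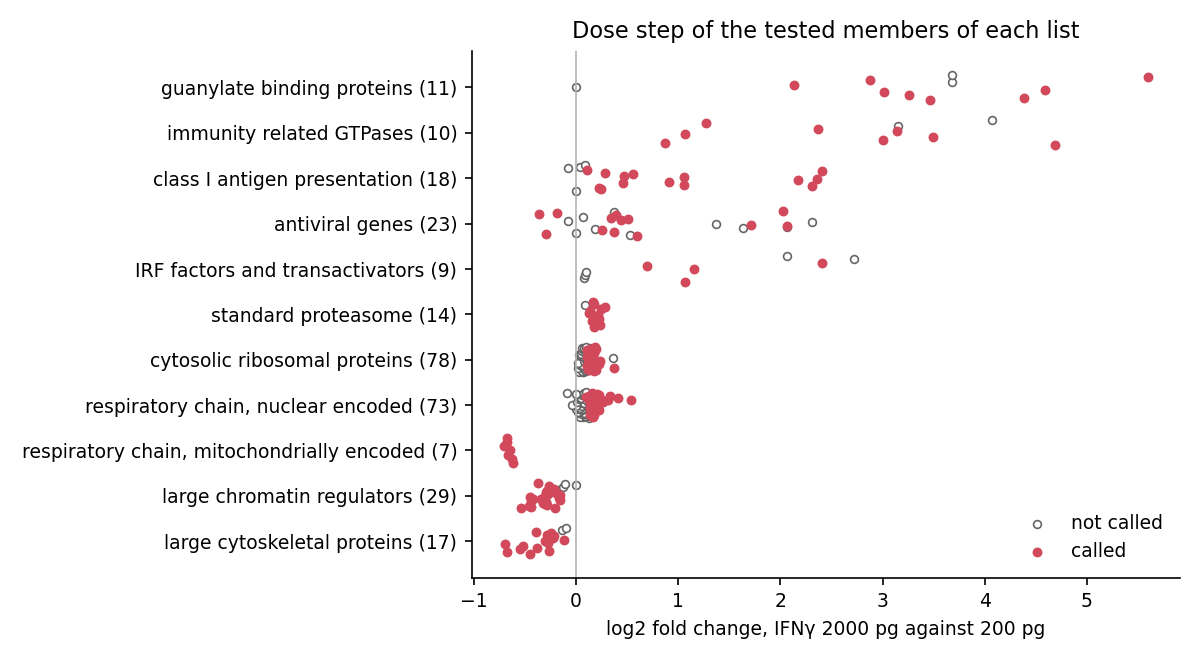
Log2 fold change of IFN2000 over IFN200 for the tested members of 11 gene lists (number tested in parentheses); filled points are called genes. The guanylate binding proteins and immunity related GTPases reach furthest to the right, whereas the 7 mitochondrially encoded genes and the lists of large proteins lie left of 0.

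Promoter motifs were counted in windows of 300 bases, 250 before and 50 after the RefSeq start. Of the 69 genes that rose at least 2-fold, 47 had a window; 19 of these held an ISRE match (40.4%) and 16 a GAS match (34.0%). Among all 9596 tested genes with a window the shares were 3.63% and 8.46%. Genes called higher by less than 2-fold held them in 4.65% and 7.98%, and genes called lower by less than 2-fold in 3.19% and 8.07%. Of the 19 genes with a window that fell at least 2-fold, none held an ISRE match and 2 held a GAS match. All 32851 windows in the table held an ISRE match in 3.44% and a GAS match in 8.30%.

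Some of the 69 large rises rested on 1 library. In 8 of them IFN2000 replicate 3 was not above both IFN200 libraries: Coro1a, Fmnl1, Gm6397, Il2rb, Itgb2, Lcp1, Ltb and Rac2. These genes were named after their values were seen, and several are known from white blood cells. Ltb had 0 and 0 counts in IFN200 and 22 and 0 in IFN2000 replicates 2 and 3. Il2rb had 3 and 7 counts against 51 and 6. IFN2000 replicate 2 is the library with 290 counts of T cell markers. Without it 34 of the 69 genes were called higher, without IFN2000 replicate 3 59 were, and without IFN200 replicates 1 or 2 the numbers were 32 and 38. Of the 34 genes that fell at least 2-fold, 15 were called without IFN200 replicate 1, 15 without IFN2000 replicate 2, and 24 and 23 without IFN200 replicate 2 and IFN2000 replicate 3. Myh7, a heart muscle myosin, had 58 and 1 counts in IFN200 and 0 and 1 in IFN2000.

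The largest falls among genes averaging at least 1 log2 CPM lay outside the interferon lists. Mgp, a secreted inhibitor of calcification, stood at 25.9 and 28 CPM in IFN200 and at 9.38 and 9.28 CPM in IFN2000 (log2 fold change -1.53 ± 0.098, SE, adjusted p = 2.6e-09, edgeR). The Ctrl libraries were at 29.3 and 26.8 CPM, close to the lower dose. Klhl24, an adaptor for a ubiquitin ligase, stood at 25.3 and 23.2 CPM against 8.61 and 8.70, a fall of 1.48 on the log2 scale. Mxd4, which opposes MYC on DNA, stood at 37.6 and 31.9 CPM against 13.5 and 15, a fall of 1.29. In each of these the groups did not overlap, which the rule that named them required and which held in 59.1% of all genes tested. Tcp11l2, Cyp2s1, Trp53inp1, Dyrk1b, Dio2 and 5430419D17Rik fell by 1.05 to 1.3 on the log2 scale. The fall of Cyp2s1, from 100 and 50 counts to 35 and 29, was not called without IFN200 replicate 1, where its log2 fold change was -0.66.

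Growth-related lists moved by small amounts. For reference, 11.3% of all genes tested were higher and 11% lower. MYC targets had 13 of 19 genes higher and 1 lower (median log2 fold change 0.16), DNA replication genes 10 of 16 higher (0.15) and mitosis genes 8 of 16 higher and 3 lower (0.096). Odc1 and Srm, enzymes of polyamine synthesis, rose by 0.26 and 0.30, Mcm5 of the replicative helicase by 0.23, and Rrm2, a subunit of ribonucleotide reductase, by 0.25. The falls in the mitosis list were Mki67, Cenpe and Cenpf, by 0.38, 0.31 and 0.33, and their exons sum to 10061, 8620 and 15433 bases. All 3 falls were also called after the length and GC correction described below. Without IFN2000 replicate 2 the rises in these lists numbered 7, 4 and 1, and without IFN200 replicate 1 they numbered 7, 3 and 3. Without IFN200 replicate 2 the MYC targets had 8 rises and the mitosis genes 5. Of 18 p53 targets, 4 were higher and 5 lower, and the rises numbered 2 without IFN2000 replicate 2 and 1 without IFN200 replicate 1. Sesn1 fell by 0.42 and Sesn2 rose by 0.41, both encoding stress-induced regulators of mTOR signalling.

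Fold changes varied with the length of the transcript. Across 13024 genes with a length, the log2 ratio of IFN2000 to IFN200 had a Spearman correlation of -0.31 with summed exon length. Genes are not replicates, so no p is given. Genes were split into 10 classes of equal size by length. In the shortest class (51 to 1330 bases) the median log2 fold change was 0.090, with 11.1% called higher and 1.46% called lower. In the longest class (9527 bases and above) it was -0.14, with 2.07% called higher and 40.1% called lower. The 2 longest classes held 56.5% of all genes called lower, and the 5 shortest held 70.2% of those called higher. Median exon length was 3056 bases in genes called higher, 7945 in genes called lower and 4094 in all tested genes. The large changes were not divided by length in this way: median length was 3381 bases in genes that rose at least 2-fold and 3165.5 in genes that fell at least 2-fold.

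**Figure D3:**
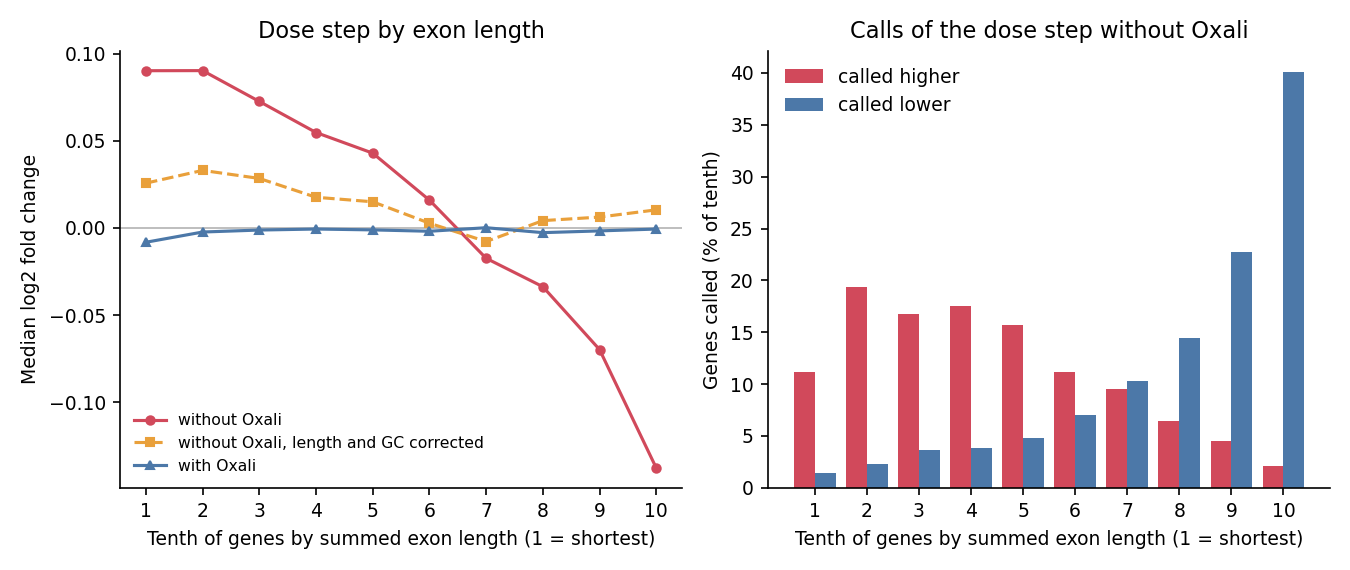
Left, median log2 fold change of the dose step in 10 classes of genes by summed exon length, without Oxali, without Oxali after a length and GC correction, and with Oxali. Right, percent of each class called higher or lower without Oxali; the share called lower grows from 1.46% in the shortest to 40.1% in the longest class.

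The trend was stronger in well expressed genes. In 4 equal classes of genes by mean level, from low to high, the correlation was -0.097, -0.35, -0.53 and -0.60. Length itself correlated with level (Spearman 0.36 across genes) and with GC content (-0.24). Summed exon length merges the exons of all annotated transcripts of a gene, so it can exceed the length of the transcript expressed. Ncl, a nucleolar protein, was one of the 3 most expressed genes of the longest class. It stood at 2901 and 2944 CPM in IFN200 against 2959 and 3104 in IFN2000 and was not called. Fn1, another of the 3, which encodes fibronectin, fell from 6384 and 5799 CPM in IFN200 to 3946 and 5050 CPM in IFN2000, where replicate 2 lay lowest. Of the 3 most expressed genes of the shortest class, Rplp1 and Lgals1 rose by 0.12 and 0.19 and mt-Cytb fell by 0.68. Rplp1 and Lgals1 were not called without IFN200 replicate 1 or without IFN2000 replicate 2.

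The trend differed between libraries of 1 group. For the 4 pairs of an IFN2000 and an IFN200 library the correlation was -0.34 and -0.32 with IFN2000 replicate 2, and -0.24 and -0.19 with IFN2000 replicate 3. Between the 2 IFN2000 libraries themselves (replicate 3 over 2) it was 0.27, larger in size than both values with replicate 3. In the other groups the correlation between partners ran from -0.19 in Combo2000 to 0.11 in Oxali. Against the mean of Ctrl, the IFN2000 libraries had correlations of -0.30 and -0.16 and the IFN200 libraries 0.15 and 0.066. The part of RNA quality or library preparation in the trend was not tested, and with 2 libraries a group a difference between preparations and one between doses cannot be told apart.

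**Figure D4:**
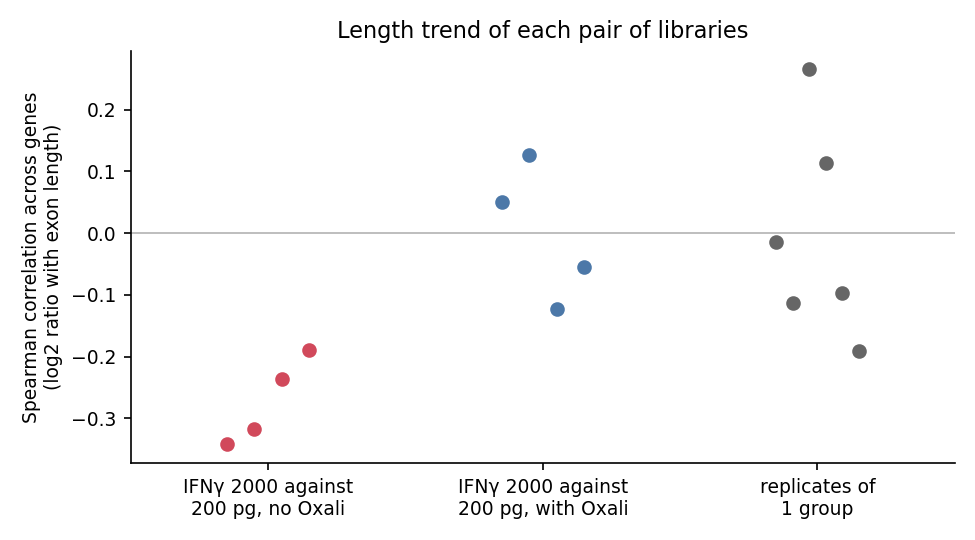
Spearman correlation, over 13024 genes, between log2 ratio and exon length, 1 point per pair of libraries. The 4 pairs without Oxali lie from -0.34 to -0.19, the 4 pairs with Oxali from -0.12 to 0.13, and the 6 pairs of replicates from -0.19 to 0.27.

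Calls in lists of long transcripts were downward and calls in lists of short nuclear transcripts upward. Of all genes tested, 11.3% were higher and 11% lower. In the longest of the 10 length classes these shares were 2.07% and 40.1%, and in the class of 1334 to 2080 bases 19.4% and 2.30%. In the class of 2081 to 2732 bases, which takes in the median length of the standard proteasome list, they were 16.7% and 3.69%. Whether the lists differed from other genes of like length was not tested. Of 29 tested chromatin regulators with long transcripts, 25 were lower and none higher (median log2 fold change -0.28), including Kmt2a, a histone methyltransferase, and the acetyltransferases Ep300 and Crebbp, with log2 fold changes of -0.54, -0.30 and -0.32. Ep300 and Crebbp were not called without IFN2000 replicate 2 or without IFN200 replicate 1. Of 17 large cytoskeletal proteins, 15 were lower and none higher, with Dst at -0.68, Syne2 at -0.70, Ahnak at -0.55 and Macf1 at -0.45. Syne2 was not called without IFN2000 replicate 2. Kmt2a stood at 143 and 139 CPM in IFN200 and at 83.9 and 111 CPM in IFN2000. Of 78 cytosolic ribosomal proteins, 42 were higher and none lower (median 0.12), and of 73 nuclear genes of the respiratory chain 29 were higher and none lower (median 0.11). Of 14 subunits of the standard proteasome, 13 were higher, with Psmb4 at 0.29; Psmb5 was the exception at 0.085. Without IFN2000 replicate 2, 10 chromatin regulators and 9 cytoskeletal genes were lower, and 7 ribosomal, 9 respiratory chain and 8 proteasome genes were higher. Without IFN200 replicate 1, the lower chromatin regulators numbered 12, and the higher ribosomal and respiratory chain genes 9 and 8. Without IFN2000 replicate 3, 67 ribosomal and 44 respiratory chain genes were higher.

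A correction was then made by fitting a smooth curve of length and GC content in each library and using it as an offset. After it the correlation with length was -0.035, and 2587 of 13024 genes (19.9%) were called, 1584 higher (12.2%) and 1003 lower (7.7%). The share of calls that were higher went from 50.7% to 61.2%. Calls shared by both fits numbered 2007, which is 68.2% of the uncorrected and 77.6% of the corrected calls. Of the 103 fitted changes of at least 2-fold, 98 were called at that size after it too. On the interferon lists 47 genes were higher and 4 lower, and all 47 were among the 49 of the uncorrected fit. Called in both fits were 14 of the 25 falls among large chromatin regulators, whose list had a median of -0.15 after correction, and 11 of the 15 among cytoskeletal proteins. Of the rises, 17 of 42 were called in both for the ribosomal proteins, 18 of 29 for the respiratory chain and 11 of 13 for the proteasome. Among called genes that averaged at least 1 log2 CPM and whose groups did not overlap, the 5 largest rises were Igtp, Gbp2, Gbp3, Irgm2 and Ifi47 in both fits, and the 5 largest falls after correction were Mgp, Klhl24, Tcp11l2, Dyrk1b and Cyp2s1.

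The mitochondrially encoded genes ran against the length trend. They encode core subunits of the respiratory chain, and their transcripts are short, with a median length of 1144 bases. Of 13 listed, 7 were tested and all 7 were lower, against 11% of all genes tested. Their median log2 fold change was -0.66, and -0.68 after correction. The other 6 were at 0 in all 12 libraries. The gene mt-Co1 stood at 3163 and 3126 CPM in IFN200 and at 1818 and 2117 CPM in IFN2000. The gene mt-Nd6 stood at 327 and 326 CPM against 190 and 210. Both groups lay apart from Ctrl, which had 2460 and 2442 CPM of mt-Co1 and 264 and 265 CPM of mt-Nd6: IFN200 above it and IFN2000 below it. Mitochondrial genes took 0.928% and 0.937% of counts in IFN200, 0.548% and 0.628% in IFN2000 and 0.737% and 0.740% in Ctrl. Fewer mitochondrial transcripts per cell and a different yield of them in the libraries cannot be told apart.

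The same dose step with Oxali present, in 4 other libraries, gave 181 calls (1.37%), 159 higher (1.21%) and 22 lower (0.167%), and 59 of the rises were at least 2-fold (0.448%). Without Combo200 replicate 3 it gave 118 calls. Its Spearman correlation with length was 0.0013, and from -0.12 to 0.13 over its 4 pairs of libraries. Called in both dose steps were 109 genes, which is 3.70% of the calls without Oxali and 60.2% of those with it; 92 rose in both and 15 fell in both. At least 2-fold rises in both steps numbered 28, and of the 19 of these with a promoter window 13 held an ISRE match (68.4%). Of the interferon lists 70 of 100 genes were higher with Oxali and none lower, and 47 were higher in both. None of the 7 mitochondrially encoded genes, the 29 large chromatin regulators or the 17 large cytoskeletal proteins was called with Oxali by edgeR or DESeq2. Of these, 1 large chromatin regulator had an unadjusted p under 0.05 in edgeR.

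The difference of the 2 dose steps was called in 868 genes (6.59%), 420 more positive (3.19%) and 448 more negative (3.4%) without Oxali. It was called in 30 of the 100 interferon list genes, 20 of them more positive without Oxali and 10 more negative. Gbp2 rose by 3.46 on the log2 scale without Oxali and by 2.26 with it, from 57.4 and 63.2 CPM to 286 and 293 CPM. The level of Gbp2 at the higher dose without Oxali, 30.6 and 30.7 CPM, was below that at the lower dose with Oxali. Irf1 rose by 1.07 without Oxali and by 0.78 with it, from 258 and 254 CPM to 432 and 445 CPM, a difference of 0.29 ± 0.062 (SE, adjusted p = 0.011, edgeR). Psmb9 rose by 2.36 and by 1.08. B2m, which was not called without Oxali, rose by 0.36 with it, and Stat2 by 0.59. All 7 mitochondrially encoded genes had a called difference. The number of called differences was 161 without IFN200 replicate 1, 304 without IFN2000 replicate 2 and 1891 without IFN2000 replicate 3. It was 411 and 205 without Combo200 replicates 2 and 3, and 290 without Combo2000 replicate 2.

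**Figure D5:**
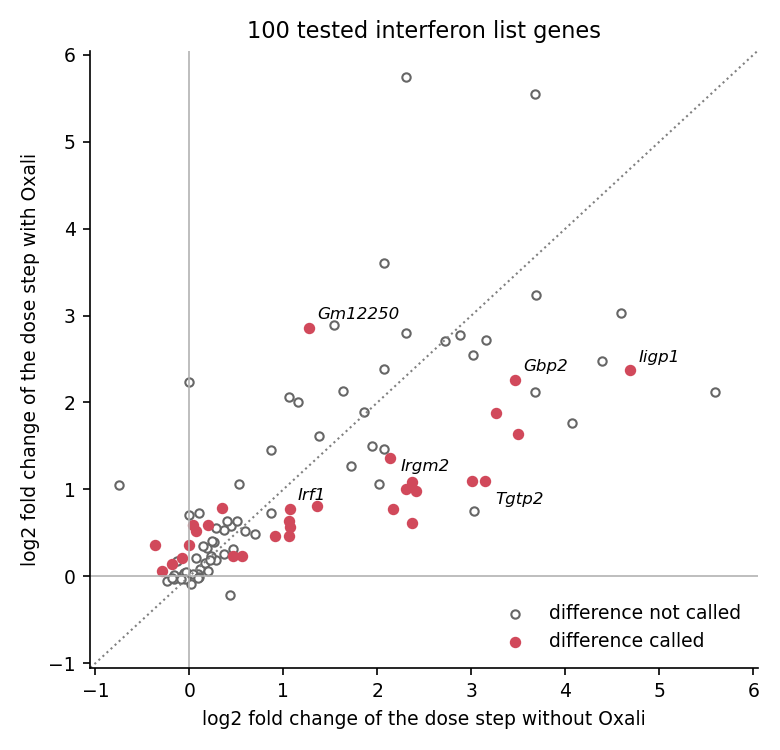
Log2 fold change of the dose step without Oxali (x axis) and with Oxali (y axis) for 100 interferon list genes; the dotted line marks equal changes and filled points are genes with a called difference. Of the 30 filled points 20 lie below the line.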

How the data were processed

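RNA from Myc-CaP cells was read in 12 libraries of 6 groups of 2, grouped by title. The authors deposited raw counts per gene symbol, one column per library. According to the study's methods and the submitters' processing notes, poly(A) RNA in stranded libraries was aligned with STAR 2.7.3a to GRCm38 and counted with featureCounts; the notes also list RSEM 1.3.0, which gives no whole counts. Strand setting and treatment of multimapping reads are not given in the sources used here. The table held 55216 genes, 28300 of them with no count. Library totals ran from 18749975 to 25931516 counts.

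Counts were tested with edgeR 4.0.16 in R 4.3.3 (quasi-likelihood test, TMM scaling, filterByExpr with a minimum count of 10 and total of 15, 13177 genes). One model of group means was fitted to all 12 libraries, since 2 libraries a group leave few degrees of freedom. Genes with a Benjamini-Hochberg adjusted p under 0.05 were called. With 2 libraries against 2, the lowest two-sided p of an exact permutation test is 0.333. Standard errors were obtained by dividing the log2 fold change by the root of F. For length and GC, each library's log2 CPM (prior count 2) minus the gene mean was fitted with natural splines (5 degrees of freedom) and used as an offset. Lengths came from GENCODE M21, for 98.8% of tested genes. Fold changes against libraries at or under 3 counts were computed against 3 counts and are lower bounds. Alternatives were DESeq2 1.42.0, other scalings and filters, a replicate block, fewer groups and leaving out each library. The scripts were tested on simulated data.

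Genes named were Irf1 and Gbp2, members of gene lists, the 10 largest rises and falls (called genes that average at least 1 log2 CPM, without overlap of the groups), the 5 largest of each after correction, the 3 most expressed genes of the shortest and longest of 10 length classes, and the 3 largest differences of each sign. The comparison, the gene lists and the rules were chosen with earlier results of these data known. Some genes that these rules take in are not reported here.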

Additional observations from a re-analysis of the deposited data

Results flagged for a closer look

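A test of the difference between the dose step without Oxali and the dose step with Oxali called 868 genes. Among called genes averaging at least 1 log2 CPM over the 8 libraries, the difference was most positive, on the log2 scale, in Iigp1 (2.32), Tgtp2 (2.05) and Irgm2 (1.91), which rose more without Oxali. It was most negative in Gm12250 (-1.59), Col6a3 (-1.27) and Xdh (-1.25). DESeq2 called the difference in Irgm2 but in none of the other genes named here. The differences of Gm12250 and Col6a3 were also not called with a replicate block or with only the 8 libraries compared. The value of Tgtp2 is uncertain, since its sequence is near-identical to that of Tgtp1. Gm12250 rose in both steps, by 1.27 without Oxali and by 2.86 with it, from 8 counts in each IFN200 library, with an adjusted p of 0.0444 for the difference (edgeR). Its rise without Oxali was not called without IFN2000 replicate 2, without either IFN200 library or with only the 4 libraries compared (edgeR adjusted p from 0.0530 to 0.209), and DESeq2 gave it no adjusted p. Its difference was not called when any of the 8 libraries was left out (edgeR adjusted p from 0.0572 to 0.204), and that of Col6a3 was called in 2 of these 8 fits, without IFN200 replicate 2 and without IFN2000 replicate 3. Neither Xdh nor Col6a3 was called in the dose step without Oxali itself (edgeR adjusted p = 0.0637 and 0.0682). Xdh stood at 4.25 and 4.86 CPM in IFN200, at 3.30 and 3.35 CPM in IFN2000, at 11.5 and 10.6 CPM in Combo200 and at 18.0 and 20.4 CPM in Combo2000.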

How the results depend on the processing

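The number of genes called between the doses, 2943, was 1588 with a replicate block, 1917 with only the 4 libraries of the groups compared, and 39 when a change of more than 1.5-fold was tested; DESeq2 called 2072. With single libraries left out it ran from 1190 to 3399. In such fits the lone library of a group is assumed to vary like the others. The dose step with Oxali gave 118 to 133 calls with single libraries left out. The difference of the dose steps, 868 calls, was called in 236 genes with a replicate block and in 1320 without a filter on low counts, and ran from 161 to 1891 with single libraries left out. IFN200 and IFN2000 share only replicate number 2, and no source says that numbers pair libraries; deviations of same-numbered libraries correlated between -0.046 and 0.045 over 15 pairs of groups, so the block was not used. The length correlation, -0.31, was -0.44 in genes averaging at least 50 counts, -0.11 without a filter on low counts, and -0.35 to -0.23 with single libraries left out. It remained negative under each alternative tried. The median of the longest of 10 length classes, -0.14, was 0.010 after the length and GC correction. That correction removes a fitted curve of length, so a median near 0 follows from its design. The causes of the other shifts were not tested. Of 91 genes named, 81 were called, none of these changed direction under any alternative, and 26 were called under all of them, the 1.5-fold test included. Of the genes not called, Stat2 was at -0.021 with the replicate block, Jak1 at 0.019 after the length and 0.024 after the length and GC correction, and B2m at 0.0069 with DESeq2 size factors, 0.0069 with DESeq2, 0.011 with upper-quartile scaling and 0.011 with the block. With single libraries left out Stat2 ran from -0.035 to 0.11, Jak1 from -0.063 to 0.0088, Ifngr1 from -0.017 to 0.12 and B2m from -0.046 to 0.056.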
